A study of Equus caballus with 32 samples.

Results

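The constitutive proteasome subunits are the genes whose symbol begins with PSMA, PSMB, PSMC or PSMD followed by a number, without PSMB8, PSMB9 and PSMB10, which encode the immunoproteasome subunits. This rule, which uses no measured value, found 33 of the 21357 genes. They comprised 15 genes of the core particle (the alpha ring genes PSMA1 to PSMA8 and the beta ring genes PSMB1, PSMB2, PSMB4 to PSMB7 and PSMB11), 15 genes of the regulatory particle and 3 genes named PSMD whose products are assembly chaperones of the base and not part of the finished particle (PSMD5, PSMD9 and PSMD10). PSMB3, PSMD8 and PSMD14 were not analysed here. RNA had been sequenced from tracheal wash (TW) derived cells of 16 male Thoroughbred racehorses kept in the same yard under the same trainer, once after about 2 months of rest (T0) and once after about 2.5 months of intense training (T1), which gave 32 libraries. A TW collects free cells from the lumen of the trachea, among them macrophages, neutrophils, lymphocytes and shed epithelium. The paper's cell percentages leave out epithelial cells, so the epithelial share is not known. The High_N group held horses 2, 3 and 10, which had a high share of neutrophils in TW cytology at T1, and the other 13 horses were its comparison. Exercise-induced pulmonary haemorrhage (EIPH) was assigned from macrophages containing haemosiderin at T1, with 11 affected horses and 5 unaffected horses (4, 9, 10, 11 and 16). Horse 10 was thus both High_N and unaffected. The High_N and EIPH status came from the study's cytology and not from the sample labels. No untrained horses were sampled at the later time point, so training and the time between samplings cannot be told apart. The paper states that the horses were mostly at pasture at T0 and stabled while in training. Housing and training thus cannot be told apart either.

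The proteasome degrades proteins that have been tagged with ubiquitin. Its core particle is a barrel of stacked rings, in which the outer alpha rings gate the entry and the inner beta rings carry the proteolytic sites, on PSMB5, PSMB6 and PSMB7. The regulatory particle caps the barrel, where a base with a ring of ATPases (PSMC1 to PSMC6) unfolds the substrate and threads it inwards, and a lid helps to capture the substrate and to remove its ubiquitin. In cells exposed to interferon the catalytic beta subunits can be exchanged for PSMB9, PSMB10 and PSMB8, which alters the peptides made for presentation on MHC class I.

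The deposited values were read as log2 values already adjusted for library size, so a difference of 1 is read as a doubling. Of the 33 members, 31 passed a minimum mean log2 value of 3, and these comprised 13 core genes, 15 regulatory particle genes and the 3 chaperones. The 2 others were core genes known for expression in other tissues. PSMA8, the alpha subunit of the testis proteasome, had a mean log2 value of -2.35, and PSMB11, the beta subunit of the thymic cortex, had one of -0.68. The mean log2 value over the core genes was 11.75 ± 0.178 (SD, n = 16) at T0 and 11.99 ± 0.288 at T1. That of the regulatory particle genes was 11.66 ± 0.135 at T0 and 11.79 ± 0.144 at T1. Levels of different genes were not compared, because the values are not scaled by gene length. In mixed cells, fewer cells of a type and less RNA per cell cannot be told apart.

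Some libraries stood apart. In the plane of principal components 2 and 3 of all tested genes, the T1 libraries of horses 14, 1 and 15 lay 94.6, 91.9 and 76.6 units from the centre, and the next library lay at 40.5. The T1 library of horse 14 held the highest of the 32 values for 21 of the 31 members, and the matching share of all genes tested is not given here. The main training results are given with and without these horses. All 3 were affected by EIPH, and the EIPH comparisons were not repeated without all 3.

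With training, 9 of the 31 members rose and none fell in limma with the horse as block and an adjusted p under 0.05. Of all 14643 genes tested, 3.89% rose and 6.35% changed in either direction. The 9 were the beta ring genes PSMB1, PSMB4, PSMB5, PSMB6 and PSMB7, the base ATPases PSMC4 and PSMC5, the lid gene PSMD13 and the chaperone PSMD9. Their increases were modest, with PSMB6 the largest at 1.38-fold and PSMC4 at 1.30-fold. At an unadjusted p under 0.05 there were 16 members (51.6%, against 28.5% of all genes tested), and 24 of the 31 differences were positive (77.4%, against 46.4%). The median difference was 0.17 log2 units over the members and -0.025 over all genes tested.

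**Figure D1:**
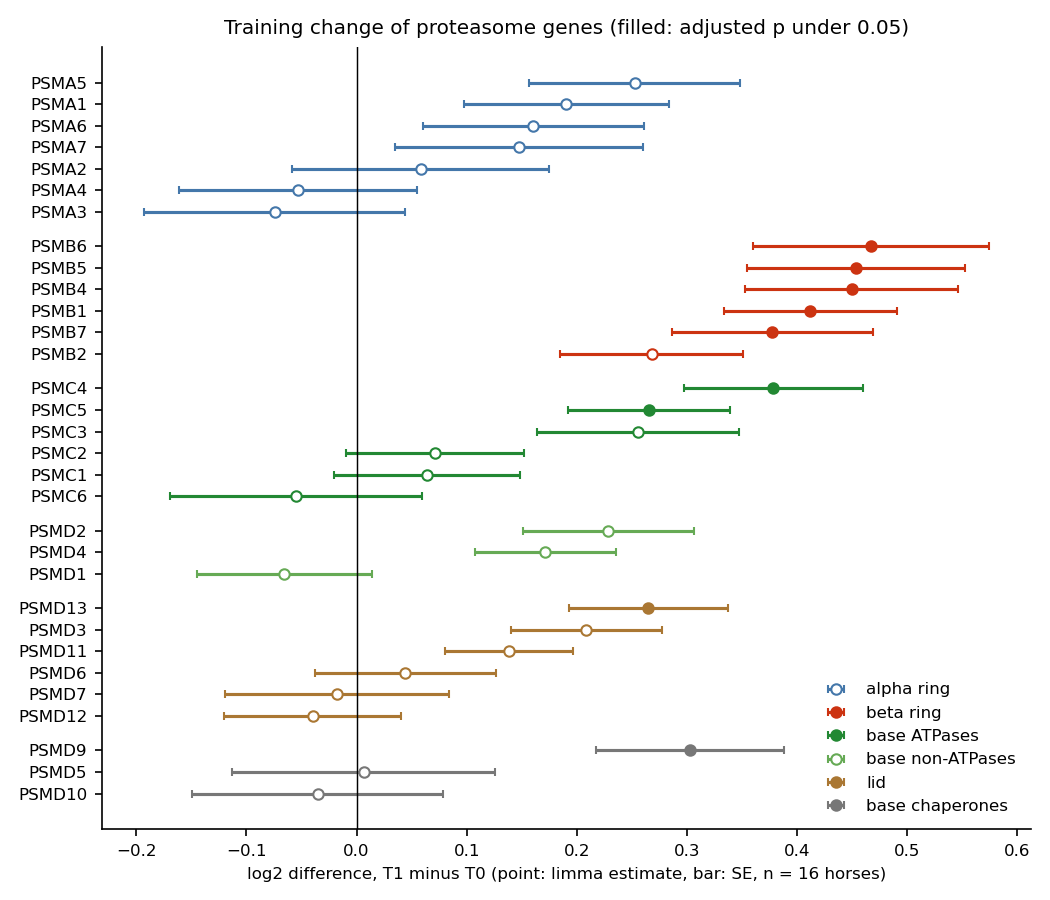
Training difference of the 31 tested proteasome genes on the log2 scale (T1 minus T0, limma estimate with its SE, 16 horses), grouped by their place in the particle, with filled points for an adjusted p under 0.05. The beta ring lies between 0.27 and 0.47, and the other groups spread from about 0 upwards.

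The 2 parts of the proteasome were not uniform. In the core, 5 of 13 genes rose, with a median difference of 0.25, and in the regulatory particle 3 of 15 rose, with a median of 0.14. Within the core the 5 genes were all of the beta ring, where 5 of 6 rose with a median difference of 0.43, while 0 of 7 alpha ring genes passed in limma (1 at an unadjusted p under 0.05, median 0.15). Within the regulatory particle 2 of 6 base ATPases rose (median 0.16), 0 of 3 other base genes (2 at an unadjusted p under 0.05, median 0.17) and 1 of 6 lid genes (median 0.091). The medians and counts are descriptions, and the difference between the rings was not tested.

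Beta ring genes had the largest differences. PSMB1 (ENSECAG00000021637), a structural beta subunit, ranged from 11.81 to 12.51 (median 12.05) on the log2 scale at T0 and from 12.21 to 13.28 (median 12.45) at T1. The ranges overlapped. In 14 of 16 horses PSMB1 was higher at T1, and horses 12 and 13 were the exceptions. Its difference was 0.41 (SE 0.079, adjusted p = 0.0148), and it passed in every fit that left out 1 horse.

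PSMB5 (ENSECAG00000017123), which carries the chymotrypsin-like site, ranged from 11.64 to 12.17 (median 11.82) at T0 and from 11.82 to 13.20 (median 12.20) at T1. It was higher in 13 of 16 horses by 0.45 (SE 0.099, adjusted p = 0.0256). The highest T1 values, 13.20 and 13.12, belonged to horses 14 and 1. PSMB6 (ENSECAG00000016254), which carries the caspase-like site, ranged from 11.06 to 11.88 (median 11.42) at T0 and from 11.43 to 13.03 (median 11.88) at T1. Its difference was the largest of the members, 0.47 (SE 0.107, adjusted p = 0.0299), with 14 of 16 horses higher at T1. PSMB7 (ENSECAG00000023415), which carries the trypsin-like site, ranged from 11.44 to 12.09 (median 11.76) at T0 and from 11.74 to 12.98 (median 12.10) at T1. It was higher by 0.38 (SE 0.091, adjusted p = 0.0340) in 14 horses. For all 3 catalytic subunits the 2 time points overlapped.

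PSMB4, a structural beta subunit, ranged from 12.39 to 13.36 (median 12.73) at T0 and from 12.75 to 14.17 (median 13.21) at T1. It was higher in 15 of 16 horses, by 0.45 (SE 0.097, adjusted p = 0.0249), with horse 13 the exception. PSMB2, the remaining beta subunit tested, had a difference of 0.27 and missed the threshold (adjusted p = 0.0558).

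None of the alpha ring genes passed. The largest difference was that of PSMA5 (0.25, adjusted p = 0.0969), and the smallest were those of PSMA3 (-0.074), PSMA4 (-0.053) and PSMA2 (0.058). PSMA3 ranged from 11.49 to 12.19 (median 11.86) at T0 and from 11.07 to 12.56 (median 11.84) at T1. It was higher at T1 in 8 of 16 horses, and both its lowest and its highest T1 value lay outside the T0 range. The 95% interval of its difference was -0.32 to 0.17.

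**Figure D2:**
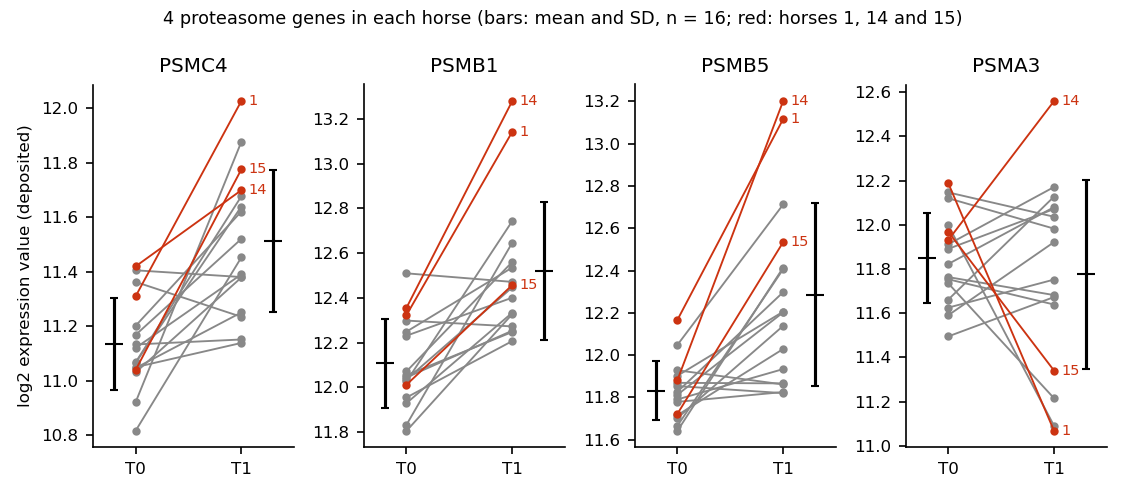
Deposited log2 values of PSMC4, PSMB1, PSMB5 and PSMA3 at T0 and T1, with a line for each of the 16 horses, red for horses 1, 14 and 15, and the mean and SD beside the points. PSMC4, PSMB1 and PSMB5 were higher at T1 in 13 or 14 horses, whereas PSMA3 was higher in 8.

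PSMC4 (ENSECAG00000014779), an ATPase of the base, ranged from 10.82 to 11.42 (median 11.09) at T0 and from 11.14 to 12.03 (median 11.49) at T1. The ranges overlapped, and 14 of 16 horses were higher at T1, with horses 12 and 13 the exceptions. The difference was 0.38 (SE 0.081, adjusted p = 0.0247), or 1.30-fold. PSMC5, another ATPase of the same ring, was higher by 0.27 (SE 0.073, adjusted p = 0.0429) in 14 horses. The 4 other ATPases did not pass, and PSMC6 had a difference of -0.055.

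Among the remaining genes of the regulatory particle, the lid gene PSMD13 was higher by 0.27 (SE 0.072, adjusted p = 0.0416) in 15 of 16 horses. It ranged from 11.21 to 11.81 (median 11.47) at T0 and from 11.42 to 12.43 (median 11.74) at T1, so the time points overlapped. The smallest differences of the regulatory particle were those of PSMD1 (-0.066), the large scaffold of the base, PSMC6 (-0.055) and the lid gene PSMD12 (-0.040), each higher at T1 in 8 or 9 horses. Of the 3 chaperones, PSMD9 was higher by 0.30 (SE 0.085, adjusted p = 0.0450), and PSMD5 and PSMD10 had differences of 0.0066 and -0.035. No member had T0 and T1 ranges that did not overlap, and the matching share of all genes tested is not given here.

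The 9 calls depended on which horses entered the fit. With 1 horse left out at a time, between 1 and 10 members rose. The count was 5 or fewer without any one of horses 1 (4 members), 3 (3), 4 (2), 6 (1), 8 (5), 11 (4), 14 (4), 15 (1) and 16 (2). The calls over all genes tested moved too, from 77 genes without horse 6 to 1847 without horse 9, against 930 with all horses. PSMB1 passed in 16 of these 16 fits, PSMB4 in 13, PSMC4 and PSMB5 in 12, PSMB6 in 8, PSMB7 in 7, and PSMC5, PSMD13 and PSMD9 in 5 each. Without horses 1, 14 and 15 together, a setting chosen after seeing the data, limma called 0 members and 9 genes in all. In that fit 20 members had an unadjusted p under 0.05, and the matching share of all genes tested is not given here. The median difference was then 0.33 in the beta ring, 0.20 in the alpha ring, 0.23 in the core and 0.17 in the regulatory particle. The differences of the 9 genes then lay between 0.21 (PSMC5) and 0.37 (PSMB4). Those of PSMB5, PSMB6, PSMB7 and PSMC4 were 0.32, 0.34, 0.28 and 0.33.

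Markers of other cells were read in the same comparison. Of 17 neutrophil markers, 9 were in the table, none at 0 in all libraries, and their mean log2 level lay between 8.36 and 9.58 at T0 and between 8.85 and 10.82 at T1. It was higher at T1 in 12 horses, although 0 of the 8 tested passed in limma (5 at an unadjusted p under 0.05). The mean of 22 of 27 ciliated epithelium markers lay between 7.72 and 11.86 at T0 and between 7.66 and 11.76 at T1, again with none at 0. It was higher at T1 in 7 horses. The mean of the macrophage markers lay between 12.82 and 14.53 at T0 and between 13.30 and 14.45 at T1, and was higher at T1 in 9 horses. Of the markers in the 8 cell type lists, 1 passed, the secretory cell gene SCGB1A1 (0.83, adjusted p = 0.0299 in limma). SCGB1A1 had 2 entries, and the other was not tested. The mean of the 2 squamous epithelium markers analysed was higher at T1 in 8 horses and lower in the others. It changed most in horse 2, by 4.62, and by 3.05, 3.58 and 0.91 in horses 14, 15 and 1. In horses 3 and 5 the change was -2.93 and -2.84. The part of secretory and squamous cells in the members' values was not tested. With the means of the neutrophil, T cell and ciliated markers as covariates, limma called 0 members and 1 gene in all. With these covariates 7 members had an unadjusted p under 0.05, and the matching share of all genes tested is not given here. The median difference was 0.34 in the beta ring, 0.11 in the alpha ring, 0.21 in the core and 0.089 in the regulatory particle.

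The horses differed in how the parts moved. The mean of the beta ring genes was higher at T1 in 15 of 16 horses, by 0.405 ± 0.324 (SD), and that of the alpha ring genes in 11, by 0.097 ± 0.395. The alpha ring value was 0.151 without horse 1, 0.057 without horse 6 and 0.044 without horse 14, while the beta ring value lay between 0.36 and 0.44 with any 1 horse left out. Without horses 1, 14 and 15 they were 0.142 and 0.324. The beta ring change was above the alpha ring change in 15 horses, with horse 9 the exception. The gap was uneven, from 0.405 to 1.33 log2 units in horses 1, 3, 4, 10, 15 and 16, and from -0.123 to 0.188 in the other 10.

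**Figure D3:**
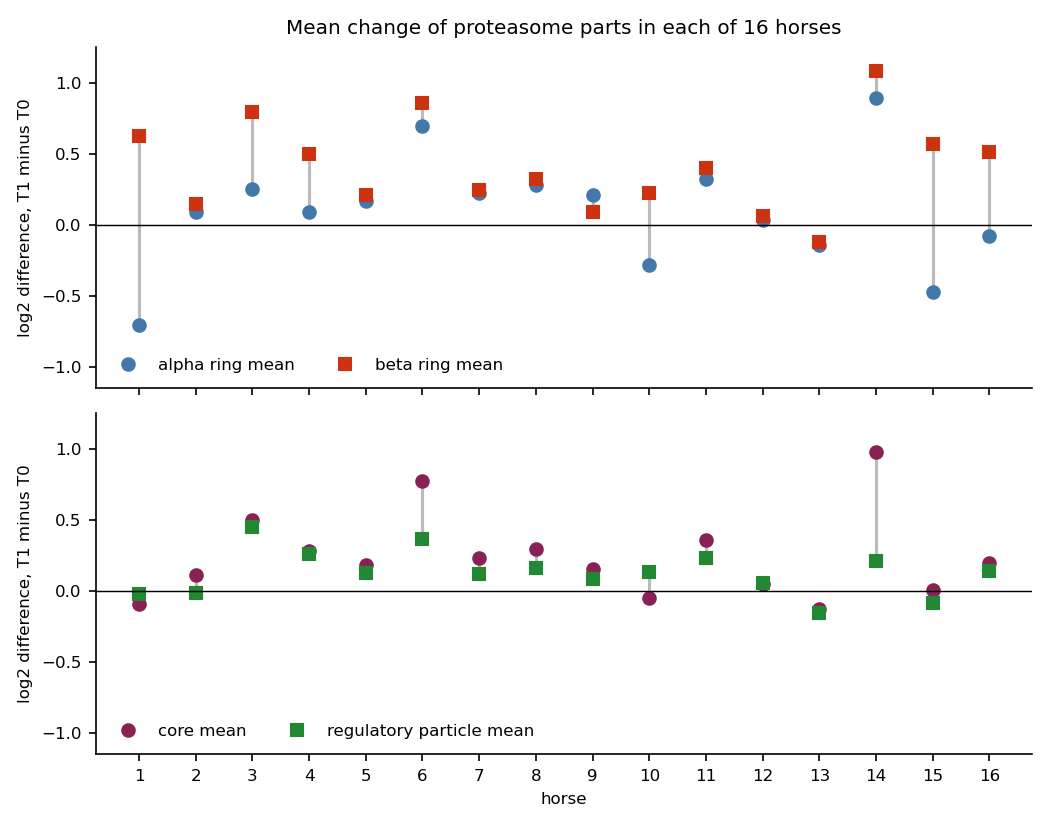
Mean log2 change (T1 minus T0) of the alpha and beta ring genes (upper panel) and of the core and regulatory particle genes (lower panel) in each of the 16 horses, joined by a grey line. The rings part most in horses 1 and 15, by 1.33 and 1.04 log2 units, and the core lies farthest above the regulatory particle in horse 14.

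In horse 1 the difference of the alpha ring mean (T1 minus T0) was -0.707 log2 units and that of the beta ring mean 0.626. In horse 15 these were -0.473 and 0.564, and in horse 14 both were positive, at 0.892 and 1.08. Thus the 3 horses whose T1 libraries stood apart were not alike in the alpha ring. The most negative differences in horse 1 were not only those of the alpha ring, with -1.19 for the chaperone PSMD5, -1.12 for PSMA3, -1.10 for PSMA4 and -1.06 for the lid gene PSMD7. In horse 15 PSMD5 had -1.08 and PSMD10 -1.05, whereas in horse 14 they had 0.45 and 0.65.

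The mean change of the core was above that of the regulatory particle in 13 of 16 horses, by 0.11 ± 0.213 (SD) on average, and by 0.068 ± 0.125 without horse 14. The largest gap was 0.767 in horse 14, followed by 0.41 in horse 6, and it was below 0 in horses 1, 10 and 12. The base ATPases were higher at T1 in 14 horses and the lid in 11. All 31 members were higher at T1 in horse 11 and 1 of 31 in horse 13, whereas horses 1 and 15 had 13 each. The matching shares of all genes tested are not given here. Library medians lay between 8.79 and 9.15, and the part of a shift of a whole library in these counts was not tested.

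**Figure D4:**
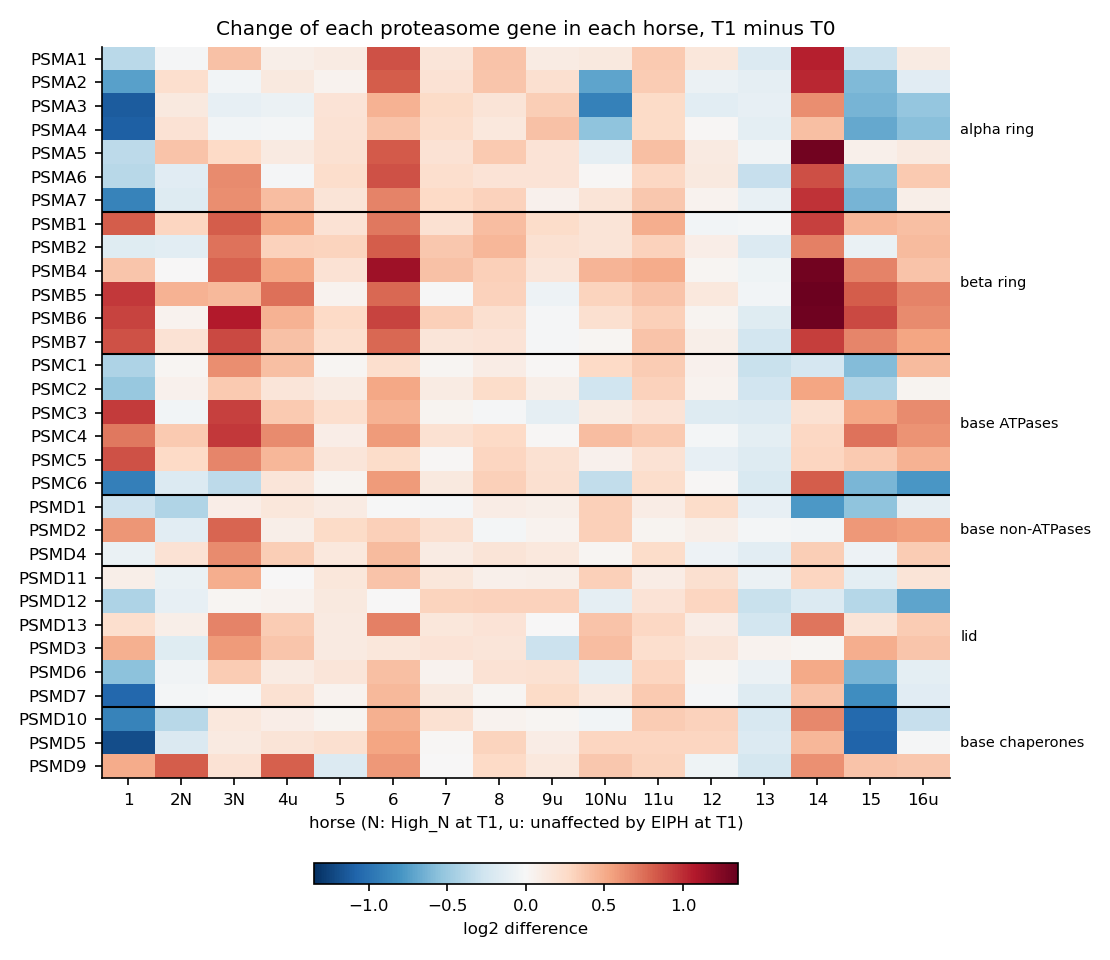
Change of each of the 31 tested proteasome genes (rows, grouped by part) in each of the 16 horses (columns) as log2 T1 minus T0, red for higher and blue for lower at T1. Horse 13 is lower in 30 of 31 genes and horse 11 is higher in all 31, without the matching shares of all genes. Horses 1 and 15 are lower in most alpha ring genes and higher in 5 of 6 beta ring genes.

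The horses also spread more at T1. The SD over the 16 horses was larger at T1 than at T0 for 30 of 31 members (96.8%) and for 77.0% of all genes tested. Without horses 1, 14 and 15 these shares were 67.7% of the members (21 of 31) and 74.0% of all genes tested, so the excess among the members was not seen without the libraries that stood apart.

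The immunoproteasome subunits that replace PSMB6, PSMB7 and PSMB5 all rose with training. PSMB9 was higher by 0.69 (SE 0.154, adjusted p = 0.0290), PSMB8 by 0.45 (SE 0.113, adjusted p = 0.0352) and PSMB10 by 0.43 (SE 0.099, adjusted p = 0.0310). PSMB9 lay between 10.09 and 11.23 at T0 and between 10.56 and 12.73 at T1, and the ranges overlapped. Of 5 activator and inhibitor genes 2 rose, namely PSME1 (0.38) and PSME2 (0.39), which encode the activator induced by interferon gamma. Of 3 chaperones of core assembly, PSMG4 rose (0.38). With marker covariates, without the block or without horses 1, 14 and 15, none of these 6 genes passed in limma, and their differences stayed positive. Without horses 1, 14 and 15 the difference of PSMB9 was 0.44.

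Genes around the proteasome did not move as a block. Of 10 genes for proteins that bind the proteasome, 0 passed in limma (2 at an unadjusted p under 0.05) and the median difference was -0.15. Of 7 genes of the axis of NFE2L1, the transcription factor that induces proteasome genes when the proteasome is inhibited, 0 passed (0 at an unadjusted p under 0.05, median -0.13). NFE2L1 itself had a difference of -0.20 (adjusted p = 0.329).

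High_N status was compared among the T1 libraries, where 0.164% of 14630 genes passed. None of the 31 members passed in limma, and none had an unadjusted p under 0.05, against 406 of all genes (2.78%). The median difference (High_N minus other) was -0.054 in the core and 0.095 in the regulatory particle. With 1 horse left out the core median lay between -0.091 (without horse 9) and 0.013 (without horse 14), and that of the regulatory particle between 0.023 (without horse 3) and 0.12. The mean of the core genes was 11.97, 11.997 and 11.80 in horses 2, 3 and 10, within the range of the other 13 horses (11.70 to 12.89). That of the regulatory particle was 11.69, 11.93 and 11.82, against 11.51 to 12.07.

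PSMC4 was at 11.52, 11.88 and 11.62 in the High_N horses at T1 and between 11.14 and 12.03 (median 11.39) in the others. All 3 lay above the median of the others, and the groups overlapped. The difference was 0.20 (SE 0.182, 95% interval -0.19 to 0.58). The base ATPase PSMC6 was at 10.87, 10.85 and 10.89 in the High_N horses and between 10.46 and 12.13 (median 11.32) in the others, a difference of -0.35 (SE 0.277). PSMA3 had a difference of -0.35 and PSMC1 of 0.22, and every adjusted p was 0.9997. In the same comparison the neutrophil marker mean was 9.60 to 10.82 in the High_N horses and 8.85 to 10.14 in the others, and 1 of 8 neutrophil markers passed (TREM1, 1.61). With the marker means as covariates, 0 members passed.

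At T0, before training, the same 3 horses did not differ from the others by any gene past the threshold (0% of 14644). An unadjusted p under 0.05 was found for 493 genes (3.37%) and 0 members. The neutrophil markers CSF3R (1.59), TREM1 (1.14) and MMP25 (0.87) were among these genes and were higher in the 3 horses. They were the only positive differences of the 8 neutrophil markers tested, whose median was -0.021. All 13 T cell markers had a positive difference, 3 of them at an unadjusted p under 0.05. The median difference was -0.026 in the core and -0.044 in the regulatory particle, and both turned positive without horse 3 (0.11 and 0.041) and were -0.083 and -0.098 without horse 2. The members with the smallest p were PSMC2 (-0.14), PSMC5 (-0.13), PSMA4 (-0.13) and PSMD9 (-0.13), and PSMC4 had -0.047. The difference in training change between High_N and other horses was tested as an interaction, in which 0 members passed (0% of 14643 genes). None had an unadjusted p under 0.05, against 172 genes (1.17%). The members with the smallest p had estimates of 0.30 for PSMC1, 0.24 for PSMC4, -0.29 for PSMC6 and -0.29 for PSMA2, with SE of 0.207 to 0.301.

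**Figure D5:**
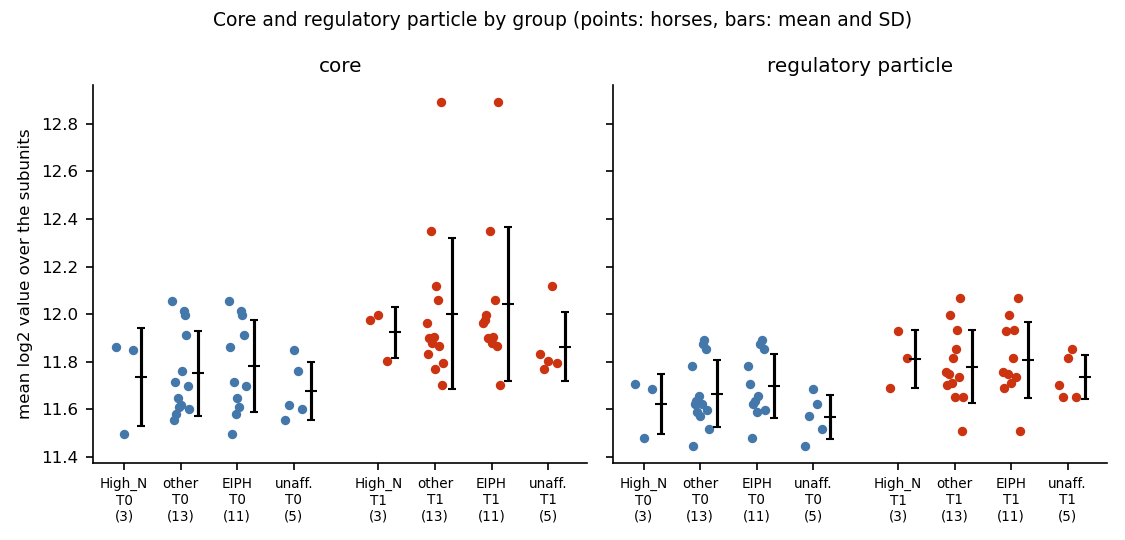
Mean log2 value over the core genes (left) and the regulatory particle genes (right) in each horse by group and time point, with group mean and SD and the number of horses in parentheses (High_N against other horses, and EIPH against unaffected). Groups overlap within each time point, and the highest core value at T1, 12.89, belongs to horse 14.

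EIPH was compared in the T1 libraries as affected minus unaffected. No gene passed (0% of 14630 genes), although 2680 genes (18.3%) had an unadjusted p under 0.05, and 0 members were among these. All 13 core differences were positive, with a median of 0.20, and 12 of 15 regulatory particle differences, with a median of 0.075. Over all genes, 51.7% were positive, with a median of 0.016. The members were read in the same horses, so their signs are not independent. The mean of the core genes was 11.83, 11.77, 11.80, 12.12 and 11.79 in the unaffected horses 4, 9, 10, 11 and 16, and from 11.70 to 12.89 (median 11.96) in the affected. Of the 5 unaffected horses, horse 11 alone was above the median of the affected, and the groups overlapped. Without horse 14, the core median was 0.10 and that of the regulatory particle 0.031, and without horse 11 the latter was 0.12.

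PSMD2, the base subunit that receives ubiquitin carriers, had the smallest p among the members, with a difference of 0.21 (SE 0.136, adjusted p = 0.420). It was at 13.33, 13.42, 13.81, 13.46 and 13.63 in the unaffected horses and from 13.52 to 14.03 (median 13.69) in the affected, so 3 unaffected horses lay below all affected ones. PSMB7 had a difference of 0.28 (SE 0.189), PSMB1 of 0.22 (SE 0.171) and PSMA5 of 0.25 (SE 0.190), none past the threshold. PSMC4 had a difference of 0.083 (95% interval -0.25 to 0.41). In this comparison 21 of 22 ciliated markers had an unadjusted p under 0.05, all lower in affected horses, with a median of -1.51. Their mean ranged from 7.66 to 11.11 in affected and from 9.56 to 11.76 in unaffected horses. All 14 macrophage marker entries, from 13 genes, were higher in affected horses, with a median of 0.50 and 5 at an unadjusted p under 0.05 in limma. The macrophage mean ranged from 13.74 to 14.45 (median 14.22) in affected and from 13.30 to 14.05 (median 13.35) in unaffected horses. The part of these cells in the core differences was not tested. With the neutrophil, T cell and ciliated marker means as covariates, 0 members passed here too, and the macrophage mean was not among the covariates.

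At T0 the same grouping gave no gene past the threshold (0% of 14644), with 172 genes (1.17%) and 1 member (3.23%) at an unadjusted p under 0.05. All 15 regulatory particle differences and 12 of 13 core differences were positive, against 43.4% of all genes. The medians were 0.12 and 0.11, against -0.033 over all genes. The members were read in the same horses, so their signs are not independent. The former was 0.083 without horse 4. The 1 member was PSMD1, at 11.95, 11.93, 12.15, 12.03 and 11.79 in the unaffected horses and from 12.03 to 12.46 (median 12.18) in those later affected. Of the unaffected horses, horse 10 alone lay above the lowest value of the others. The difference was 0.22 (SE 0.078, adjusted p = 0.939). PSMD11 (0.18), PSMD12 (0.19) and PSMD10 (0.20) followed, with the same adjusted p.

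The training change did not differ between affected and unaffected horses for any member past the threshold. In this interaction 0 members passed (0% of 14643 genes) and 0 had an unadjusted p under 0.05, against 218 genes (1.49%). PSMC1 had the smallest p, with -0.33 (SE 0.171, adjusted p = 0.982), followed by PSMD1 (-0.25), PSMD7 (-0.26) and PSMD5 (-0.23). The difference of the core mean (T1 minus T0) was 0.263 ± 0.354 (SD, n = 11) in affected and 0.187 ± 0.153 (SD, n = 5) in unaffected horses. That of the regulatory particle mean was 0.11 ± 0.185 and 0.167 ± 0.073, and the spreads overlapped.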

How the data were processed

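TW derived cells of 16 horses were sequenced at T0 and T1, 1 library per horse and time point. Per the labels and methods, reads passed through cutadapt (trimming), FastQC and MultiQC (quality) and kallisto 0.46.0.1 (quantification against EquCab3.0 transcripts). From their form, the deposited values were read as log2 values, adjusted for library size and shrunk toward the gene mean at low expression. How the authors made them is not given in the sources used here. The values are not counts, so depth per library and counting intervals could not be given, no count test was run, and differences may understate changes.

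Genes at 0 in every library (1899 of 21357) were left out, and a mean log2 of at least 3 was required over the libraries compared. Library medians of the tested genes lay between 8.79 and 9.15. All tested genes were fitted with limma 3.58.1 in R 4.3.3, with a mean-variance trend, and p-values were adjusted over all of them by Benjamini-Hochberg at 0.05. Training and interactions used the horse as block, since the same animals were sampled at both times. In a check of the pairing, the deviations of a horse's 2 libraries correlated between -0.508 and 0.785, above 0.1 in 12 of 16 horses. Horses 2, 3 and 5 had -0.508, -0.483 and -0.425, and horse 10 had 0.036. The High_N horses 2, 3 and 10 thus all lay below 0.1, and their training changes rest on these pairs. Of the T0 libraries, 6 correlated best with their own T1 library. The fit was tested on simulated data with independent noise for each gene and larger changes than those of the members called here. That simulation cannot speak for changes of their size. High_N and EIPH comparisons used the libraries of 1 time point.

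Named with values are PSMC4, members past the threshold, the 3 largest and 3 smallest training differences of core and regulatory particle, the 4 members of smallest p in each High_N and EIPH comparison, members under the minimum, and up to 3 genes per related list. PSMD5, PSMD7 and PSMD10 in single horses, the beta subunit PSMB2, SCGB1A1 and TREM1 were chosen after their values were seen. The members and lists were chosen with earlier results of these data known. One related gene list is not reported here. Alternatives covered the minimum, library scaling, limma settings, marker covariates, the block and subsets of horses. The plots were made in Python 3.11.15 using matplotlib 3.10.9.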

Additional observations from a re-analysis of the deposited data

Results flagged for a closer look

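Among 93 groups of 5 horses (unaffected horses, per gene or part and time point), 4 held a horse far from the other 4, where chance flags about 1 in 20 groups. At T1, horse 11 had a core mean of 12.12 on the log2 scale, against 11.77 to 11.83 in the other unaffected horses. At T1, horse 11 also had the highest PSMA5 value, 11.71 against 11.26 to 11.37. At T0, horse 4 had the lowest mean of the 3 chaperones PSMD5, PSMD9 and PSMD10, 9.53 against 9.69 to 9.75. At T0, horse 4 had the lowest PSMD13 value, 11.24 against 11.47 to 11.54.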

How the results depend on the processing

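The horse was the replicate block in the training fit, and without this pairing 1 member (PSMC4, adjusted p = 0.0498) and 15 genes passed. The 9 members called with training also became 0 with marker covariates, 0 without the 3 High_N horses, 0 without the 5 unaffected horses and, in a setting chosen after seeing the data, 0 without horses 1, 14 and 15. In these fits 7, 14, 14 and 20 members had an unadjusted p under 0.05, and 1, 25, 0 and 9 genes passed in all. The matching shares of all genes at an unadjusted p under 0.05 are not given here. Leaving out 1 horse gave 1 to 10 members and 77 to 1847 genes in all. With libraries shifted to one median 7 members rose, without the minimum 7, with a minimum of 7 on the log2 scale 10, without the limma trend 6 and with robust moderation 9. In the same order, 519, 454, 1381, 633 and 956 genes passed in all. PSMC5 and PSMD13 missed the threshold with shifted libraries, PSMC5 and PSMD9 without the minimum, and PSMC5, PSMD13 and PSMD9 without the trend. The cause of these shifts was not tested, and leaving out horses also leaves fewer samples. The training medians kept their sign in all settings, from 0.182 to 0.293 in the core and from 0.114 to 0.156 in the regulatory particle with 1 horse left out.

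Differences near 0 changed sign. In training, PSMC6 was 0.081 and PSMD12 0.035 with covariates, and PSMA4 was 0.040, PSMD1 0.042 and PSMD12 0.027 without horses 1, 14 and 15. With 1 horse left out, PSMA4 ranged from -0.084 to 0.016, PSMC6 from -0.11 to 0.0026, PSMA2 from -0.0058 to 0.11 and PSMD12 from -0.063 to 0.0050. For High_N, the core median changed sign at T1 and both medians at T0, and in the interaction the core median ranged from -0.224 to 0.079. In the EIPH interaction the regulatory particle median ranged from -0.062 to 0.026. PSMC4 ranged from -0.099 to 0.041 in High_N horses at T0 and from -0.14 to 0.017 in the EIPH interaction, where libraries shifted to one median gave 0.014. The median of the regulatory particle in the High_N interaction ranged from -0.066 to 0.281 (main value 0.084) and was 0.281 without horse 2. No member passed in any High_N, EIPH or interaction fit under any alternative run. With 3 High_N and 5 unaffected horses, moderate differences could be missed, and without counts the precision of single values is unknown.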
